A study of Mus musculus with 12 samples.

Results

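The comparison described here is the loss of p62 in the striatum of mice that carry no Huntington's disease transgene. It rests on 6 of the 12 arrays of the series. The 3 arrays titled NT;p62-_- are from non-transgenic p62 knockout mice (p62-/-) and the 3 titled NT;p62+_+ are from non-transgenic mice with normal p62 (p62+/+), and the arrays were chosen by these titles alone. All 6 samples were striatum at 8 weeks, dissected and snap-frozen, and 100 ng of total RNA from each was labelled for a whole-transcript array. The study crossed p62 knockout mice with Huntington's disease (HD) model mice, and its other 6 arrays are the HD;p62-_- and HD;p62+_+ groups, with 3 arrays each. The HD mice were also 8 weeks old, and 100 ng of total RNA was used from each. These 2 groups carry the HD transgene and share no array with the non-transgenic pair, so the HD pair gives the p62 comparison in other animals. The titles call the arrays of a group biological replicates. The sources used here name neither the HD model line nor the p62 allele, the strain, the sex of the mice or which were littermates. All p-values below speak for the spread among these mice and arrays only.

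The protein p62, encoded by Sqstm1, is a selective autophagy receptor. It binds ubiquitin on cargo through one domain, binds LC3-family proteins on the forming autophagosome through a short motif, and polymerises through its PB1 domain, so that ubiquitinated protein is gathered into bodies and delivered to the lysosome. It also binds KEAP1, the adaptor that marks the transcription factor NRF2 for degradation, and takes part in TRAF6, atypical protein kinase C and mTORC1 signalling. In the brain p62 is a component of ubiquitin-positive inclusions, among them those of mutant huntingtin. Genes of each of these routes, of striatal neurons and of the other cells that a striatal sample can hold are therefore described in turn.

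The values are log2 RMA expression values, in which 1 unit is a factor of 2 in array signal. Of 24055 probe sets, 19942 carried a single gene symbol, and the brightest probe set of each gene over the 12 arrays left 19248 genes. Array medians lay between 7.70 and 7.73. Replicate arrays correlated across genes at 0.9875 to 0.9935 in the p62-/- group and at 0.9918 to 0.9936 in the p62+/+ group, and pairs of arrays from different groups at 0.9876 to 0.9937. The last range covers the same span as the first, so that across all genes a p62-/- array was no further from a p62+/+ array than from another array of its own group. The p62-/- replicate 3 had the narrowest spread of values of all 12 arrays (SD 1.73, against up to 1.87). Striatal markers were bright in all 6 arrays, with Penk, the enkephalin precursor of indirect-pathway projection neurons, between 13.08 and 13.27 on a scale that ran from 1.99 to 13.77. Eif2s3y, a gene of the Y chromosome, lay between 8.89 and 9.91 in all 12 arrays.

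Sqstm1 itself was measured first. Its values were 8.44, 8.52 and 8.49 in the p62-/- arrays and 11.19, 11.35 and 11.24 in the p62+/+ arrays. All 3 p62-/- arrays were low and all 3 p62+/+ arrays high, in keeping with their labels. Sqstm1 fell by 2.78 on the log2 scale (SE 0.11; 95% interval -3.01 to -2.54), from 11.26 ± 0.0790 to 8.49 ± 0.0376 (SD, n = 3 each), which is a 6.86-fold reduction. The adjusted p was 1.05e-07, from limma with Benjamini-Hochberg adjustment over all 19248 genes. In HD striatum the difference was -2.48 (adjusted p = 4.03e-07), and the difference between the 2 effects was 0.30 (SE 0.15, adjusted p = 0.991). Where the probe set lies relative to the deleted part of the gene is not given in the sources used here, so the signal that remained in the knockout arrays has no stated source.

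Sqstm1 was the only gene that passed an adjusted p of 0.05 in non-transgenic striatum, which is 0.00520% of the genes tested. At an unadjusted p below 0.05 there were 639 genes, or 3.32%, where 5% is the nominal share. Of these, 328 genes (1.70%) were higher and 311 (1.62%) lower without p62. The values of the 2 groups did not overlap for 1515 genes, or 7.87%, of which 746 (3.88%) were higher and 769 (4.0%) lower in p62-/- arrays. The counts were nearly equal in each direction, and the median difference over all genes was -0.01, with 47.1% of genes above 0.

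A count of called genes does not say how large a difference could have been missed, so each gene's 95% interval was set against fixed folds. The whole interval lay inside 2-fold in either direction for 19110 of 19248 genes (99.3%), inside 1.5-fold for 18288 (95%) and inside a difference of 0.32 on the log2 scale for 12574 (65.3%). The observed difference had a median size of 0.06, it was below 0.23 for 95% of genes and below 0.40 for 99%, and 19160 genes (99.5%) differed by less than 0.5. An interval reached 0.21 to either side of the difference in the median gene, a factor of 1.15, and 0.14 to 0.41 in the middle 90% of genes. These are intervals for 1 gene at a time. Intervals widened to hold for all 19248 genes together reached 0.78 in the median gene, a factor of 1.72, and 13179 genes (68.5%) then lay inside 2-fold. The bound was loosest for genes of low signal. In the third of genes with the lowest mean value, 90.3% lay inside 1.5-fold and 98.5% inside 2-fold, against 98.8% and 99.8% in the third with the highest. In HD striatum the shares were 94.8% inside 1.5-fold and 99.3% inside 2-fold, almost those of the non-transgenic pair.

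**Figure D1:**
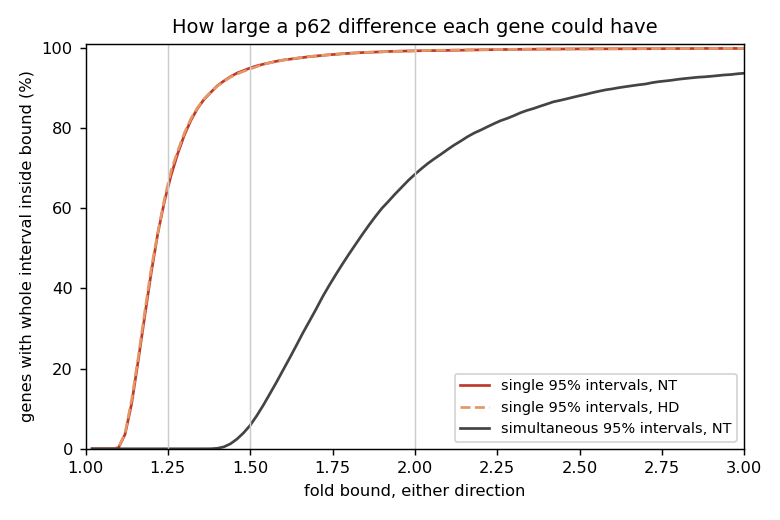
The share of the 19248 genes (vertical axis, percent) whose whole 95% interval for the p62 difference lies inside a given fold in either direction (horizontal axis). The curves for single intervals in non-transgenic (NT) and HD striatum lie on each other, passing 95% at 1.5-fold and 99.3% at 2-fold in NT, while intervals that hold for all genes together reach 68.5% at 2-fold.

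The interval lay wholly beyond 2-fold for Sqstm1 alone, beyond 1.5-fold for 3 genes and beyond 0.32 on the log2 scale for 10. The 10 were Sqstm1, Akna, Lyrm7, Rsrc1, Alg13, Pramel7, Krt6b, Ppef2, Snord53 and Kcnj13. The observed difference reached 2-fold in 12 genes. They were Sqstm1, 5 genes of the choroid plexus list described below (Kcnj13, Ttr, Kl, Folr1 and Sostdc1), and Alg13, Krt6b, Rsrc1, Snord53, Lyrm7 and Pramel27. Pramel27 was lower by 1.00 with an interval of -2.35 to 0.34. It was 5.05, 5.53 and 4.85 in p62-/- arrays and 5.45, 6.66 and 6.32 in p62+/+ arrays, so the NT groups overlapped. The interval uses the spread of all 4 groups, and the HD p62-/- arrays were 6.10, 3.49 and 5.95. Snord53, a small nucleolar RNA, was 6.76, 8.10 and 8.17 in p62-/- arrays and 6.71, 6.66 and 6.52 in p62+/+ arrays. Its p62-/- replicate 1 was at the level of the p62+/+ arrays, and its difference was 1.04 in NT but -0.78 in HD.

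**Figure D2:**
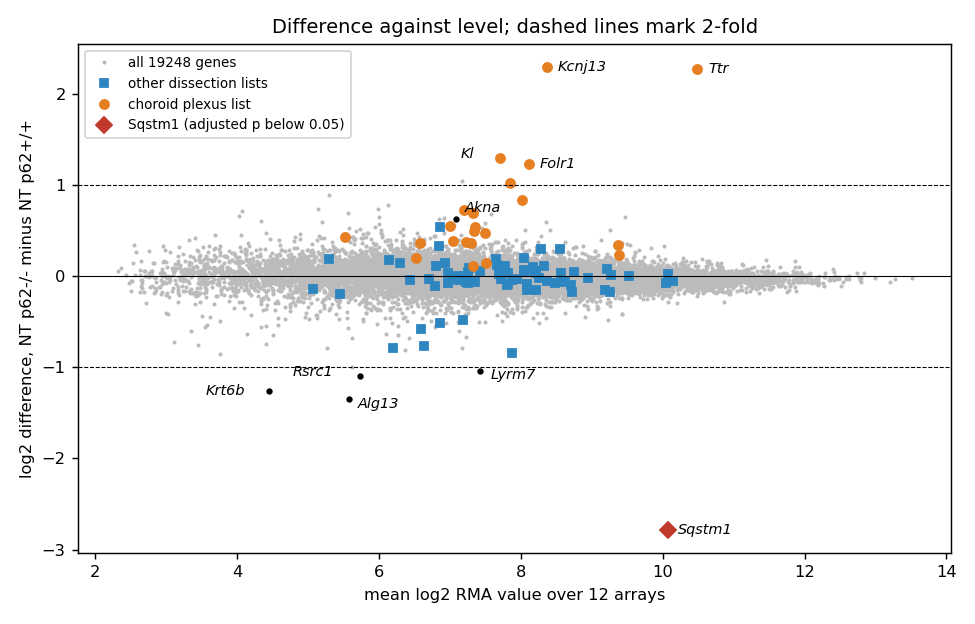
The p62 difference in non-transgenic striatum (vertical axis, p62-/- minus p62+/+, log2) against the mean log2 RMA value over 12 arrays (horizontal axis), with each of the 19248 genes as a point and 2-fold as dashed lines. Sqstm1 stands alone at -2.78, and the largest positive differences, Kcnj13 at 2.29 and Ttr at 2.27, belong to the choroid plexus list.

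Among the autophagy cargo receptors, the family of which p62 is a member, 17 genes were measured and Sqstm1 alone passed the test. The median of the list was -0.05 beside -0.01 over all genes. Nbr1, the receptor most like p62 in domain structure, lay between 9.92 and 10.35 without p62 and between 9.88 and 10.24 with it. These groups overlap, and the difference was 0.11 (95% interval -0.19 to 0.41). Tax1bp1, another ubiquitin-binding receptor, differed by -0.15 (95% interval -0.43 to 0.14), and Stbd1, the receptor that carries glycogen, by 0.13. Ncoa4, the receptor that carries ferritin to the lysosome, was 9.60, 9.61 and 9.40 without p62 and 9.70, 9.75 and 9.80 with it. All 3 p62-/- arrays were below all 3 p62+/+ arrays, yet the difference of -0.21 (SE 0.08, unadjusted p = 0.0224) did not pass the adjustment (limma, Benjamini-Hochberg adjusted p = 1.000), and in HD striatum it was -0.03.

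No binding or signalling partner of p62 passed the test, nor an unadjusted p of 0.05, and all 20 measured lay inside 1.5-fold. Keap1 was 8.64, 8.66 and 8.53 against 8.66, 8.68 and 8.61, a difference of -0.04 (95% interval -0.18 to 0.11). Traf6, the ubiquitin ligase that p62 brings to receptor complexes, was 8.37, 8.39 and 8.44 against 8.48, 8.55 and 8.55. The arrays of Traf6 did not overlap, but the difference was only -0.13 (95% interval -0.28 to 0.02). Prkcz, an atypical protein kinase C, differed by -0.05, Mtor by 0.02 and Rptor, the mTORC1 scaffold, by -0.04.

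The autophagy machinery itself showed no member past an unadjusted p of 0.05. All 35 core genes and all 27 lysosomal genes measured lay inside 1.5-fold, with medians of -0.05 and -0.04. Map1lc3b, which encodes the LC3 protein that p62 binds, was 10.95, 10.84 and 10.79 in p62-/- arrays and 10.96, 10.97 and 10.90 in p62+/+ arrays. Its difference was -0.09 (95% interval -0.23 to 0.06). Gabarapl1, an LC3 relative, differed by -0.14. Among lysosomal genes Ctsd, the protease cathepsin D, differed by 0.02 and Lamp1 by -0.05. Tfeb, a transcription factor of lysosomal genes that was counted in the core list, differed by -0.01.

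NRF2 target genes were measured because p62 competes for KEAP1. Of 30 measured, 0 passed the test and 29 lay inside 1.5-fold. At an unadjusted p below 0.05, 1 was higher and 1 lower (6.67%, beside 3.32% of all genes). Nqo1, a quinone reductase often read as a reporter of NRF2, was 6.69, 6.79 and 6.76 without p62 and 6.79, 6.80 and 6.62 with it. The difference was 0.01 (95% interval -0.25 to 0.27). Hmox1, heme oxygenase, differed by -0.03, Gclm, a subunit of the enzyme that starts glutathione synthesis, by -0.11, and Nfe2l2, the gene of NRF2, by -0.02. The list as a whole leaned down, with 24 of 30 differences below 0 and a median of -0.09, where 47.1% of all genes were above 0. In 6 genes (Gstm1, Gstp1, Mgst1, Txnrd1, Ftl1 and Ugdh) every p62-/- array lay below every p62+/+ array, while in Abcc4 they lay above. The shares over all genes were 4.0% below and 3.88% above, and proteasome subunits, described next, had such genes as well. Txnrd1, thioredoxin reductase, was 8.34, 8.42 and 8.27 against 8.48, 8.63 and 8.45, a difference of -0.18 (unadjusted p = 0.0634). The lean was not seen in the HD pair, where the list's median was 0.03. Without the p62-/- replicate 3, the array with the narrowest spread, the median in NT was -0.05 and 22 differences were below 0. With the SD of each array's values as a covariate 23 were, and 5 of 30 had an unadjusted p below 0.05 in limma. The share of all genes with such a p in that fit is not given here. With the mean of the choroid plexus genes as a covariate the median was -0.17. The part of these array properties in the lean was not tested. Slc7a11, the cystine transporter, was the member outside 1.5-fold, at -0.40 with an interval of -0.85 to 0.05, and its p62+/+ replicate 2 was 9.14 against 8.56 and 8.50 in the other p62+/+ arrays.

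The proteasome, the other main route for ubiquitinated protein, had 31 subunits measured and all 31 inside 1.5-fold. Of these, 27 differences were below 0 with a median of -0.06. In 6 of the 31 (Psma1, Psmb3, Psmb4, Psmc3, Psmc4 and Psmd6) every p62-/- array lay below every p62+/+ array, beside 4.0% of all genes. Without the p62-/- replicate 3, 16 differences were below 0 and the median was -0.02. With the SD of each array's values as a covariate, 21 were below 0. Core autophagy genes had 28 of 35 below 0, 19 without that array and 24 with the covariate, and lysosomal genes had 20 of 27, 11 and 15. The mean p62-/- levels of these lists were 9.58, 8.81 and 9.96, and that of NRF2 targets 8.97, beside 7.76 over all genes. Without the dimmest 50% of genes the median difference over all genes was -0.025, beside -0.006 with them. The share below 0 among genes of like brightness was not counted. Heat shock and chaperone genes had a median of 0.00 over 21 members, and Hspa8, the constitutive HSP70, was 12.50, 12.61 and 12.49 against 12.52, 12.55 and 12.53. Dnajb6, a cochaperone that holds back aggregation of polyglutamine proteins, was 6.57, 6.58 and 6.75 without p62 and 6.32, 6.41 and 6.21 with it. The groups of Dnajb6 did not overlap, and the difference of 0.32 (SE 0.10, unadjusted p = 0.00626) did not pass the adjustment. In HD striatum Dnajb6 differed by 0.16. All 30 genes of endoplasmic reticulum stress and the integrated stress response lay inside 1.5-fold, with no unadjusted p below 0.05.

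NF-kB and inflammatory genes (23 measured, median 0.00) had no member at an unadjusted p below 0.05. Interferon-stimulated genes (21 measured, median 0.01) had Trim25, a ubiquitin ligase of RNA sensing, at 0.32 (unadjusted p = 0.00513) in NT and -0.03 in HD. Cholesterol synthesis genes (18 measured, median -0.05) and respiratory chain genes (33 measured, median -0.04) had none. All members of these last 3 lists lay inside 1.5-fold.

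**Figure D3:**
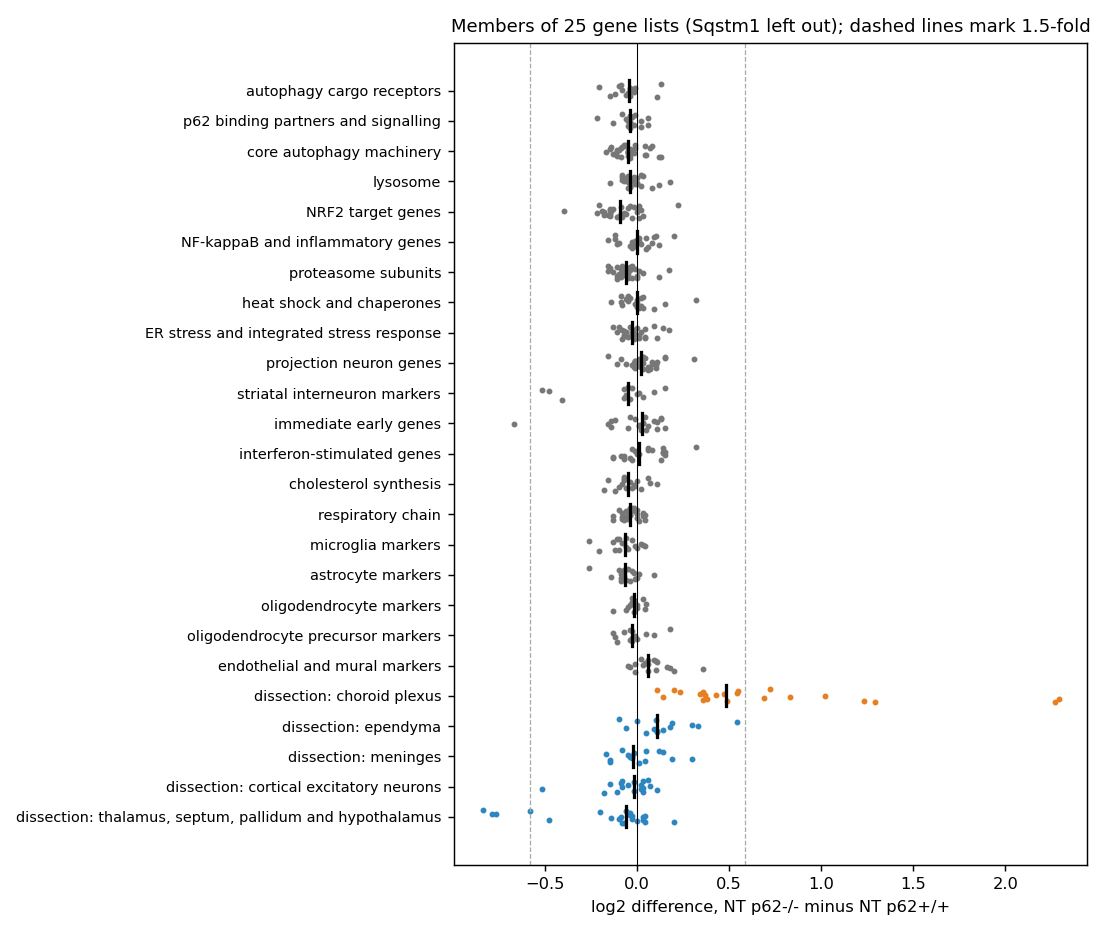
The p62 difference in non-transgenic striatum (horizontal axis, log2) for the measured genes of 25 lists (vertical axis; Sqstm1 left out), with each gene as a point, the list's median as a bar and 1.5-fold as dashed lines. The medians lie between -0.09 (NRF2 targets) and 0.11 (ependyma) in all lists but choroid plexus, whose 22 genes are all above 0 with a median of 0.48.

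The projection neurons make up most of the striatum, and all 36 of their genes measured lay inside 1.5-fold, with a median of 0.02. Drd1, the dopamine receptor of direct-pathway neurons, was 10.52, 10.59 and 10.63 without p62 and 10.59, 10.42 and 10.54 with it, a difference of 0.06 (95% interval -0.09 to 0.22). Drd2, that of indirect-pathway neurons, differed by 0.07 (95% interval -0.11 to 0.25), and Penk by 0.03 (95% interval -0.11 to 0.18). Ppp1r1b, which encodes DARPP-32, differed by -0.01 and Pde10a, the striatal phosphodiesterase, by 0.06. The arrays of the 2 groups overlapped for each of these genes. Ebf1, a transcription factor of direct-pathway neurons, was the exception, at 8.44, 8.68 and 8.70 without p62 and 8.25, 8.22 and 8.42 with it. Its difference was 0.31 (unadjusted p = 0.0117) in NT and -0.06 in HD, and Ebf1 lies within 10 Mb of Sqstm1.

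Interneuron markers were less tightly bound, with 10 of 15 inside 1.5-fold and none at an unadjusted p below 0.05. Chat, the acetylcholine-synthesising enzyme of cholinergic interneurons, was 7.15, 7.87 and 7.29 without p62 and 8.01, 7.73 and 7.79 with it. The p62-/- replicate 2 lay among the p62+/+ arrays, and the difference was -0.41 (95% interval -0.86 to 0.04). In HD striatum Chat differed by 0.24. Among immediate early genes, which follow recent neuronal activity, 1 of 22 had an unadjusted p below 0.05. It was Npas4, an activity-dependent transcription factor, at 7.15, 6.69 and 7.93 without p62 and 7.71, 8.06 and 8.00 with it. The p62-/- replicate 3 lay inside the p62+/+ range, and the difference was -0.67 (SE 0.27, unadjusted p = 0.0279), against 0.09 in HD. Fos, of the same list, differed by 0.05. The list's median was 0.02, with 8 of 22 differences below 0. Without the p62-/- replicate 3 the median was -0.07, 14 were below 0 and 4 had an unadjusted p below 0.05 in limma. Over all genes, 2.72% to 4.9% had such a p when 1 NT array was left out.

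The glial and vascular lists gave 0 genes past the test in limma, and Cd53 and Kdr alone had an unadjusted p below 0.05. Microglia markers (18 measured, median -0.07, all inside 1.5-fold) had Cd53, a leukocyte tetraspanin, at 7.46, 7.57 and 7.56 without p62 and 7.81, 7.86 and 7.69 with it. The groups of Cd53 did not overlap in NT (difference -0.26, unadjusted p = 0.00763), and in HD the difference was 0.07. Gfap, the filament protein of reactive astrocytes, differed by -0.04 (95% interval -0.26 to 0.18) and Mbp, a myelin protein, by -0.02 (95% interval -0.16 to 0.13). In the astrocyte list 17 of 18 genes lay inside 1.5-fold, as did all 16 oligodendrocyte and all 14 precursor genes. Differences below 0 numbered 16 of 18 in astrocyte, 14 of 18 in microglia, 13 of 16 in oligodendrocyte and 11 of 14 in precursor genes. Without the p62-/- replicate 3 these counts were 15, 15, 11 and 9, and with the SD of each array's values as a covariate 13, 16, 9 and 8. Endothelial and mural markers leaned the other way, with 14 of 18 differences above 0 and a median of 0.06, where 47.1% of all genes were above 0. Kdr, a receptor for vascular endothelial growth factor, was 7.99, 8.00 and 8.13 against 7.63, 7.71 and 7.71. The groups of Kdr did not overlap in NT (difference 0.36, unadjusted p = 0.000989), in HD it differed by -0.04, and with the mean of the choroid plexus genes in the fit it was 0.29 in NT. The choroid plexus genes described below were higher in the same 3 arrays, and their part in the endothelial differences was not tested.

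A knockout allele made in one strain and bred into another can keep flanking DNA of the first, so genes near Sqstm1 were described apart. By the GRCm38.p6 annotation, 226 measured genes lay within 10 Mb of Sqstm1 on chromosome 11. None passed the test in the fit used here in either p62 comparison, and Lyrm7 passed in HD under the 2 alternatives given below. At an unadjusted p below 0.05 there were 16 (7.08%, beside 3.32% of all genes), 7 higher and 9 lower in NT, and 2 higher and 11 lower in HD. Over all genes the HD pair had 2.88% at such a p, 1.22% higher and 1.66% lower. The window's median was -0.01, and 208 of 226 genes lay inside 1.5-fold beside 95% of all genes.

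Of these neighbours, 3 had an unadjusted p below 0.05 in the same direction in both the NT and the HD pair, which across all genes was met by 21 (0.109%), Sqstm1 included, while 30 genes had such a p in both pairs in opposite directions. Counted in measured genes from Sqstm1, the 3 (Lyrm7, Anxa6 and Mfap3) lay at positions 68, 72 and 86, all on the same side. No gene nearer to Sqstm1 on either side met this rule. Lyrm7, an assembly factor of respiratory complex III, was 7.12, 6.98 and 6.77 without p62 and 7.76, 8.05 and 8.18 with it in NT, and 6.92, 6.85 and 6.68 against 8.26, 7.92 and 7.63 in HD. All 6 arrays without p62 lay below all 6 arrays with it. The differences were -1.04 in NT (SE 0.16, adjusted p = 0.136) and -1.12 in HD (adjusted p = 0.0653), neither past the limma threshold. In HD, Lyrm7 passed it under 2 alternatives, without the dimmest 25% of genes (adjusted p = 0.0468) and with a trended and robust variance (adjusted p = 0.0434). Anxa6, a calcium-dependent membrane-binding annexin, was 9.04, 9.17 and 8.71 against 9.29, 9.48 and 9.59 in NT and 8.98, 9.08 and 8.92 against 9.62, 9.52 and 9.33 in HD. Its groups again did not overlap, with differences of -0.48 (unadjusted p = 0.00196) and -0.50 (unadjusted p = 0.00149). Mfap3 was 8.64, 8.77 and 8.63 against 8.95, 9.03 and 9.14 in NT, a difference of -0.36 (unadjusted p = 0.00138), and in HD it was lower by 0.21, given as -0.21 with an unadjusted p of 0.0343. Rnf187, a RING-type ubiquitin ligase gene of the same window, differed by -0.28 (unadjusted p = 0.00218) in NT and by -0.10 in HD. Anxa6 and Rnf187 were named after their values were seen. Whether a difference in these genes follows from the loss of p62 or from flanking DNA of the allele cannot be told apart here, and the sources used here do not say whether such flanking DNA differs between the groups.

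**Figure D4:**
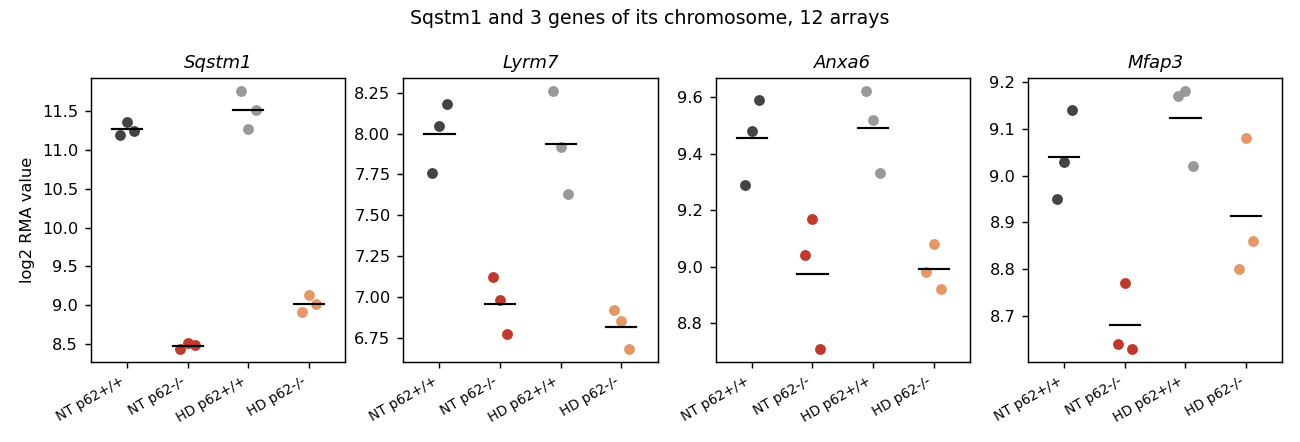
The log2 RMA values (vertical axes, each with its own range) of Sqstm1, Lyrm7, Anxa6 and Mfap3 in the 4 groups (horizontal axes), with each array as a point and the group mean as a bar. In Lyrm7 and Anxa6 all 6 arrays without p62 lie below all 6 arrays with it, as in Sqstm1, while in Mfap3 the HD groups overlap.

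The genes that differed most were taken as the 10 higher and the 10 lower genes of smallest p among those whose NT groups did not overlap, with Sqstm1 as the first of the lower. They were chosen by that p, so their values are a description of these arrays. Akna, an AT-hook protein gene, had the smallest p of the higher genes, at 7.50, 7.30 and 7.43 without p62 and 6.85, 6.85 and 6.65 with it. Its difference was 0.63 (SE 0.09) with an adjusted p of 0.136, so it did not pass. In HD striatum Akna differed by 0.00 (95% interval -0.20 to 0.20), and the difference between the effects, -0.63 (SE 0.13), had an adjusted p of 0.991. The others on the higher side were Cfap206, a ciliary gene (0.52), Tlr4, the receptor for lipopolysaccharide (0.43), Kitl, the ligand of the KIT receptor (0.27), Nepro (0.39), Kdr (0.36), Scgb2b27 (0.34), Ifi205, an interferon-inducible gene (0.44), Mroh3 (0.73) and St6galnac1, a sialyltransferase gene (0.44).

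On the lower side, after Sqstm1 and Lyrm7, came Slc2a5, a fructose transporter gene, at 7.25, 7.40 and 7.20 without p62 and 7.85, 7.89 and 7.62 with it. The difference of Slc2a5 was -0.50 (SE 0.10, unadjusted p = 0.000395) in NT and -0.25 (unadjusted p = 0.0364) in HD. Rsrc1, a splicing-related gene, was 5.40, 5.53 and 4.60 against 6.60, 6.22 and 6.0, a difference of -1.10, with -0.42 in HD. Alg13, a subunit of an enzyme of N-glycosylation, was 3.77, 5.36 and 4.94 against 5.93, 6.07 and 6.13. Its p62-/- replicate 1 lay far below the others, and the difference was -1.35 in NT and 0.25 in HD. The rest were Nit1 (-0.33), Kri1 (-0.35), Ccl6, a chemokine gene (-0.40), Mfap3 (-0.36) and Pramel7 (-0.72). All but Sqstm1, Akna and Lyrm7 had an adjusted p of 1.000 by limma with Benjamini-Hochberg adjustment.

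The HD pair measures the same 20 genes, Sqstm1 included, in other arrays. The p that chose them used the spread over all 12 arrays, so the HD p-values are not independent of that choice. In HD, 16 of 20 had the same direction, 9 of the higher and 7 of the lower. The 9 include Akna at 0.00 and Kitl and Scgb2b27 at 0.04 each, and the 7 include Sqstm1 and its neighbours Lyrm7 and Mfap3. The share of all genes with the same direction in both pairs was not counted. In HD, 5 of the 20 had an unadjusted p below 0.05 (St6galnac1, Sqstm1, Lyrm7, Slc2a5 and Mfap3), of which Sqstm1 alone passed the adjustment. The difference was smaller in HD than in NT for 19 of 20, with Lyrm7 as the exception. The choice by small NT p favours genes whose NT difference is large, so this count does not compare the NT and HD effects. Across all 19248 genes the NT and HD differences correlated at -0.02, and at -0.04 without Sqstm1. These values are across genes, which are not independent replicates. In the test of the difference between the NT and HD effects, 0 genes passed an adjusted p of 0.05 by limma and 3.45% had an unadjusted p below 0.05.

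The genes of tissue that borders the striatum were kept apart, since how much of it a dissection takes can differ between animals. The lists for choroid plexus, ependyma, meninges, cortical excitatory neurons, blood, and thalamus, septum, pallidum and hypothalamus together held 95 measured genes. None passed the test, 11 were higher and 1 lower at an unadjusted p below 0.05 (12.6%), and outside these lists 627 of 19153 genes had such a p (3.27%).

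The choroid plexus, the tissue of the ventricle wall that makes cerebrospinal fluid, had the highest median difference of the lists described here. All 22 measured genes were higher without p62, with a median of 0.48, and 10 of 22 had an unadjusted p below 0.05. In 19 of 22 the NT groups did not overlap with p62-/- arrays above, beside 3.88% of all genes. Ttr, which encodes the transport protein transthyretin, was 11.58, 11.58 and 11.70 without p62 and 8.48, 9.97 and 9.60 with it. All 3 p62-/- arrays lay within a narrow band above all 3 p62+/+ arrays, and the difference was 2.27 (SE 0.90, unadjusted p = 0.0260). Kcnj13, a potassium channel of this epithelium, was 9.67, 9.51 and 9.54 against 6.84, 7.82 and 7.19, a difference of 2.29 (SE 0.88). Kl, which encodes Klotho, was 8.04, 8.31 and 8.32 against 6.71, 7.10 and 6.98, and Folr1, a folate receptor, was 8.71, 8.38 and 9.0 against 7.46, 7.64 and 7.31. Neither overlapped, with differences of 1.29 and 1.23. F5, coagulation factor V, was 8.32, 8.39 and 8.43 against 7.44, 7.66 and 7.55.

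In HD striatum the same list had a median of 0.25 and no gene at an unadjusted p below 0.05. Ttr was 8.36, 12.21 and 11.32 in HD p62-/- arrays and 11.75, 10.78 and 8.58 in HD p62+/+ arrays, so the replicates of 1 HD group spanned more than the whole NT difference. The mean of the list per array, after each gene was centred on its own mean, was 0.27, 0.30 and 0.42 in NT p62-/- arrays and -0.47, -0.25 and -0.38 in NT p62+/+ arrays. In the HD groups it was -0.60, 0.94 and 0.09 without p62 and 0.34, -0.09 and -0.58 with it. The NT groups were apart on this measure and the HD groups were not. In bulk tissue, more choroid plexus in a sample and more of its RNA per cell cannot be told apart.

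The spread of the HD arrays sets the test for these genes. In a fit on the 6 NT arrays alone, 4 genes (0.0208%) passed an adjusted p of 0.05 by limma, namely Sqstm1, Kcnj13 (adjusted p = 0.0327), Kl (0.0327) and F5 (0.034). All 3 that joined Sqstm1 belong to the choroid plexus list, and 18 of the 22 had an unadjusted p below 0.05 in that fit, beside 615 of all genes (3.20%). With the list's mean per array as a covariate, Sqstm1 was again the gene called, the median of the 22 was 0.02 and 12 of them were above 0, as a covariate built from these genes must bring about. Outside the list, Akna was 0.70, Lyrm7 -1.14, Slc2a5 -0.56 and Kitl 0.31 in that fit, each further from 0 than without the covariate. Their SEs were larger too, at 0.11, 0.19, 0.13 and 0.08 against 0.09, 0.16, 0.10 and 0.06. The limma adjusted p of Akna and of Lyrm7 was 0.426, against 0.136 without the covariate. Cfap206 at 0.43 and Kdr at 0.29 were nearer to 0 with the covariate.

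**Figure D5:**
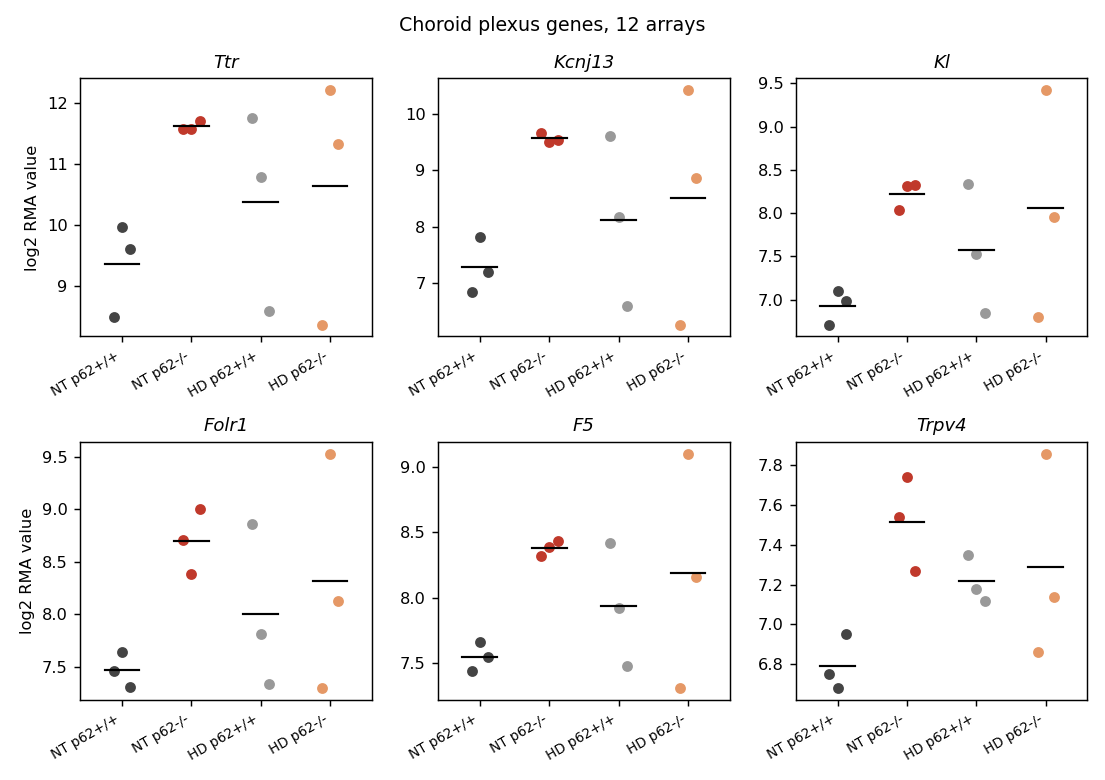
The log2 RMA values (vertical axes, each with its own range) of Ttr, Kcnj13, Kl, Folr1, F5 and Trpv4, all of the choroid plexus list, in the 4 groups (horizontal axes), with each array as a point and the group mean as a bar. In each panel the 3 NT p62-/- arrays lie above the 3 NT p62+/+ arrays, while the HD groups overlap, as for Ttr from 8.36 to 12.21 without p62 and from 8.58 to 11.75 with it.

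Among the other bordering tissues, the p62+/+ replicate 2 was high in genes of the ventral midbrain and hypothalamus. Slc6a3, the dopamine transporter, was 10.25 there and 7.69 to 7.83 in the other 5 NT arrays, and Th, the enzyme that starts dopamine synthesis, was 9.77 against 8.26 to 8.50. Hcrt, the orexin precursor, was 8.92 against 6.35 to 6.60, and Pmch, the precursor of melanin-concentrating hormone, was 9.19 against 5.76 to 6.98. The difference of -0.52 for Th in the interneuron list rests on this array, since the other p62+/+ values, 8.50 and 8.38, lay among the p62-/- values. In thalamic genes the p62-/- replicate 1 was high as well, with Slc17a6, a glutamate transporter, at 8.30 there and 8.63 in p62+/+ replicate 2. The list's median was -0.06, and 0.05 without p62+/+ replicate 2, so it had no settled sign. Cortical genes, with list means of 0.43, 0.22 and -0.20 in p62-/- arrays and 0.03, 0.12 and 0.46 in p62+/+ arrays, overlapped fully. Ependymal genes, from the ciliated lining of the ventricle, had 11 of 14 differences above 0 with a median of 0.11, which stayed between 0.08 and 0.20 whichever NT array was left out and was 0.01 with the choroid plexus mean in the fit. Dnah11, a ciliary dynein gene, was the ependymal gene of smallest p, at 7.73, 7.59 and 7.86 without p62 and 7.49, 7.55 and 7.57 with it. Its groups did not overlap, and the difference was 0.19 (unadjusted p = 0.0333). Meningeal genes had a median of -0.03.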

How the data were processed

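Total RNA from striatum was measured on Affymetrix whole-transcript arrays. The authors deposited 1 log2 value per probe set and array. The submitters' processing notes name RMA as the method, and the sources used here give neither its settings nor a genome build. Of 24055 probe sets, 1225 named several genes and 2888 none, and these were left out. Gene symbols came from the platform's annotation, 19886 of 19942 matched the RefSeq gene table (GRCm38.p6), and of several probe sets for a gene (470 genes) the brightest over 12 arrays was used. No filter on dim genes was applied.

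All 12 arrays entered 1 limma fit (R 4.3.3, limma 3.58.1; lmFit and eBayes, default settings) with 4 group means, so that the spread of a gene is shared by all groups (8 residual and 4.14 prior degrees of freedom). Adjusted p-values are Benjamini-Hochberg over 19248 genes, with a threshold of 0.05. An exact permutation test of 3 arrays against 3 cannot go below 0.1 and was not used. Intervals are from the same fit, for single genes or with Bonferroni widening. Precision is limited by having 3 arrays in each group. The script was tested on simulated data.

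The groups, gene lists and members were chosen with earlier results of these data known. Genes were named by a rule: Sqstm1, called genes, the 10 higher and 10 lower genes of smallest p without overlap between groups, called genes within 10 Mb of Sqstm1, and the gene of smallest p and the brightest gene of each list; other genes named were chosen for their known role or after their values were seen. Lists are described by counts and medians, with no test of the list. Alternatives were the 6 NT arrays alone, a replicate block, leaving out each NT array, filters on dim genes, renormalization, other probe set rules, other variance models, and covariates for array spread, choroid plexus and cortex.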

Additional observations from a re-analysis of the deposited data

How the results depend on the processing

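In the other fits that kept all 12 arrays, Sqstm1 remained the 1 gene called in NT, and leaving out each NT array in turn gave 1 called gene each time, with Sqstm1 between -2.81 and -2.73. With the 6 NT arrays alone 4 genes were called, 3 of them in the choroid plexus list (Kcnj13, Kl and F5). A variance trend with robust estimation on those 6 arrays, added after seeing the data, also gave 4 and 3. Deviations of NT arrays from their group means correlated across genes at -0.09, -0.03 and 0.00 for the same replicate number. For unlike numbers the values ran from -0.07 to 0.14. With 3 arrays in each group these values cannot show whether the samples were paired. The replicate block on 12 arrays gave 1 called gene (Sqstm1 -2.78, adjusted p = 5.99e-06), and on the 6 NT arrays 2, of which 1 was a dissection gene (Kl). Genes inside 2-fold numbered 19019 to 19049 when an NT array was left out, and 9605 (99.8%) without the dimmest 50% of genes, where fewer genes were tested. Genes at an unadjusted p below 0.05 numbered 523 to 944 when an array was left out. Dissection genes called were 0 in each of those fits. In HD, Lyrm7 joined Sqstm1 without the dimmest 25% of genes (2 genes called, Lyrm7 adjusted p = 0.0468) and with a trended and robust variance (2 genes, 0.0434), Glb1l3 joined it with array weights (2 genes), and both did at an adjusted p below 0.1 (3 genes). No gene differed between the p62 effects in limma (665 at an unadjusted p below 0.05), except 1, Slf1 (adjusted p = 0.0354), without the NT p62+/+ replicate 2, a range of 0 to 1 over arrays left out; the cause was not tested. Of 75 named genes other than Sqstm1, 16 had a sign change in at least 1 of 24 settings (47 of 1786 comparisons), none of them past the threshold. The 19 genes described above with Sqstm1 as differing most had 0 sign changes. They were chosen for NT groups without overlap, so leaving out an NT array could not reverse their sign. A changed threshold or variance trend leaves the difference itself as it was, so this count does not speak for their stability.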

Other observations

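Akna lies within 10 Mb of 80 other measured genes, and this window was chosen after the values of Akna were seen. Of these, 5 were higher and 0 lower in NT p62-/- arrays at an unadjusted p below 0.05, namely Tlr4 (0.43), Ambp (0.26), Tnc, an extracellular matrix glycoprotein gene (0.25), Svep1 (0.21) and Brinp1 (0.18), beside 1.70% of all genes that were higher at that p. In the HD pair none of the 5 had such a p. At that p 0 genes of the window were higher and 5 others lower in HD, beside 1.22% and 1.66% of all genes. None passed the adjustment. H2-Ab1, a class II antigen-presenting chain, was 0.23 higher without p62 in both NT and HD striatum, and Akr1b8, an aldo-keto reductase gene, differed by -0.23 and -0.22, each at an unadjusted p below 0.05 in both pairs. They are 2 of 21 genes (0.109%) with such a p in both pairs in the same direction, beside 30 in opposite directions, and were chosen after their values were seen.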
